A study of Mus musculus with 12 samples.

Results

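The signals that draw blood vessels into the growth plate, or keep them out, were described from 10 genes in microdissected hypertrophic zones of mouse tibiae: the vascular endothelial growth factors Vegfa, Vegfb, Vegfc and Figf, the placental growth factor Pgf, the angiopoietins Angpt1 and Angpt2, the neuropilins Nrp1 and Nrp2, and the inhibitor Lect1. Members were taken by gene name, with every probe of each gene that was not a control spot, whatever its signal. All 10 genes were on the array, with 1 to 3 probes each. They gave 17 probes of the 41174 measured, which name 27677 genes in all.

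Each of the 12 arrays held RNA from 1 tibia of 1 mouse aged 14 days, with 3 mice in each of 4 groups. Schmid mice were homozygous for Col10a1 p.Asn617Lys, a knocked-in misfolding mutation of collagen X, the collagen made by hypertrophic chondrocytes. Cog mice (ColXTgcog) carried a misfolding thyroglobulin, a protein foreign to cartilage, as a transgene driven by Col10a1 regulatory sequence, and hemizygous and homozygous Cog mice were not told apart. Each mutant was compared with wildtype littermates of its own background, named in the labels wildtype (Schmid background) and wildtype (Cog background) and here called the Schmid wildtypes and the Cog wildtypes. No group carried both alleles, and the labels name no agent.

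In growing bone, hypertrophic chondrocytes release Vegfa, and vessels then enter from below as the cartilage is replaced by bone. Vegfa acts through the receptors Kdr and Flt1, Vegfb and Pgf bind Flt1, and Vegfc acts through Flt4 and Kdr and mouse Figf (also called VEGF-D) through Flt4, with neuropilins as co-receptors. Angpt1 activates the receptor Tek and Angpt2 mostly opposes it. Lect1, or chondromodulin 1, is a cartilage protein that inhibits vessel growth.

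Signals are given as log2 of the background-corrected, quantile-normalized intensity. A probe was called at an adjusted p of 0.05 or less together with a change of at least 2-fold. From 39.6 to 61.8% of the spots on an array were well above background, with the 3 Schmid arrays at 58.9 to 61.8%. The Schmid wildtypes stood at 59.4, 48.0 and 53.8%, the Cog arrays at 44.1, 39.6 and 48.1% and the Cog wildtypes at 41.0, 53.8 and 58.5%. Counts of arrays well above background depend in part on this. The 3 Schmid arrays shared 1 slide, the Cog wildtypes shared another, and 1 Schmid wildtype lay with the 3 Cog arrays, so no slide held a mutant and its own wildtype, and slide and genotype cannot be told apart. Of the tissue's defining markers, Col10a1 was well above background on all 12 arrays and was not called in either mutant, and all 6 chondrocyte markers were detected on every array. Of the member probes, 7 were well above background on all 12 arrays, 6 on 7 to 10 arrays and 4 on 0, and 0 were saturated.

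In Schmid, Vegfc and Pgf fell, and 2 of the 17 member probes were called, both lower, where 10.5% of all probes were called and 4.69% were called lower. In Cog, Vegfc was the single member called, also lower. That is 1 of 17 probes, where 2.31% of all probes were called and 0.748% were called lower. The change of Pgf differed between the mutants, and it was the 1 member probe called in that contrast (lower in Schmid relative to Cog), where 10.3% of all probes were called and 5.88% in that direction. Between the wildtype groups, limma called 0 of 17 member probes (2 had an unadjusted p no higher than 0.05), against 0.469% of all probes. The 3 Schmid arrays lay entirely above or below their wildtypes for 7 of 17 member probes, where 45.3% of all probes did so, for Cog the count was 8 of 17, where the share was 29.4%, and between the wildtype groups it was 5 of 17, where the share was 18.2%. The median log2 change over the 17 probes was -0.40 in Schmid and -0.03 in Cog, against medians of -0.06 and -0.004 over all probes.

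**Figure D1:**
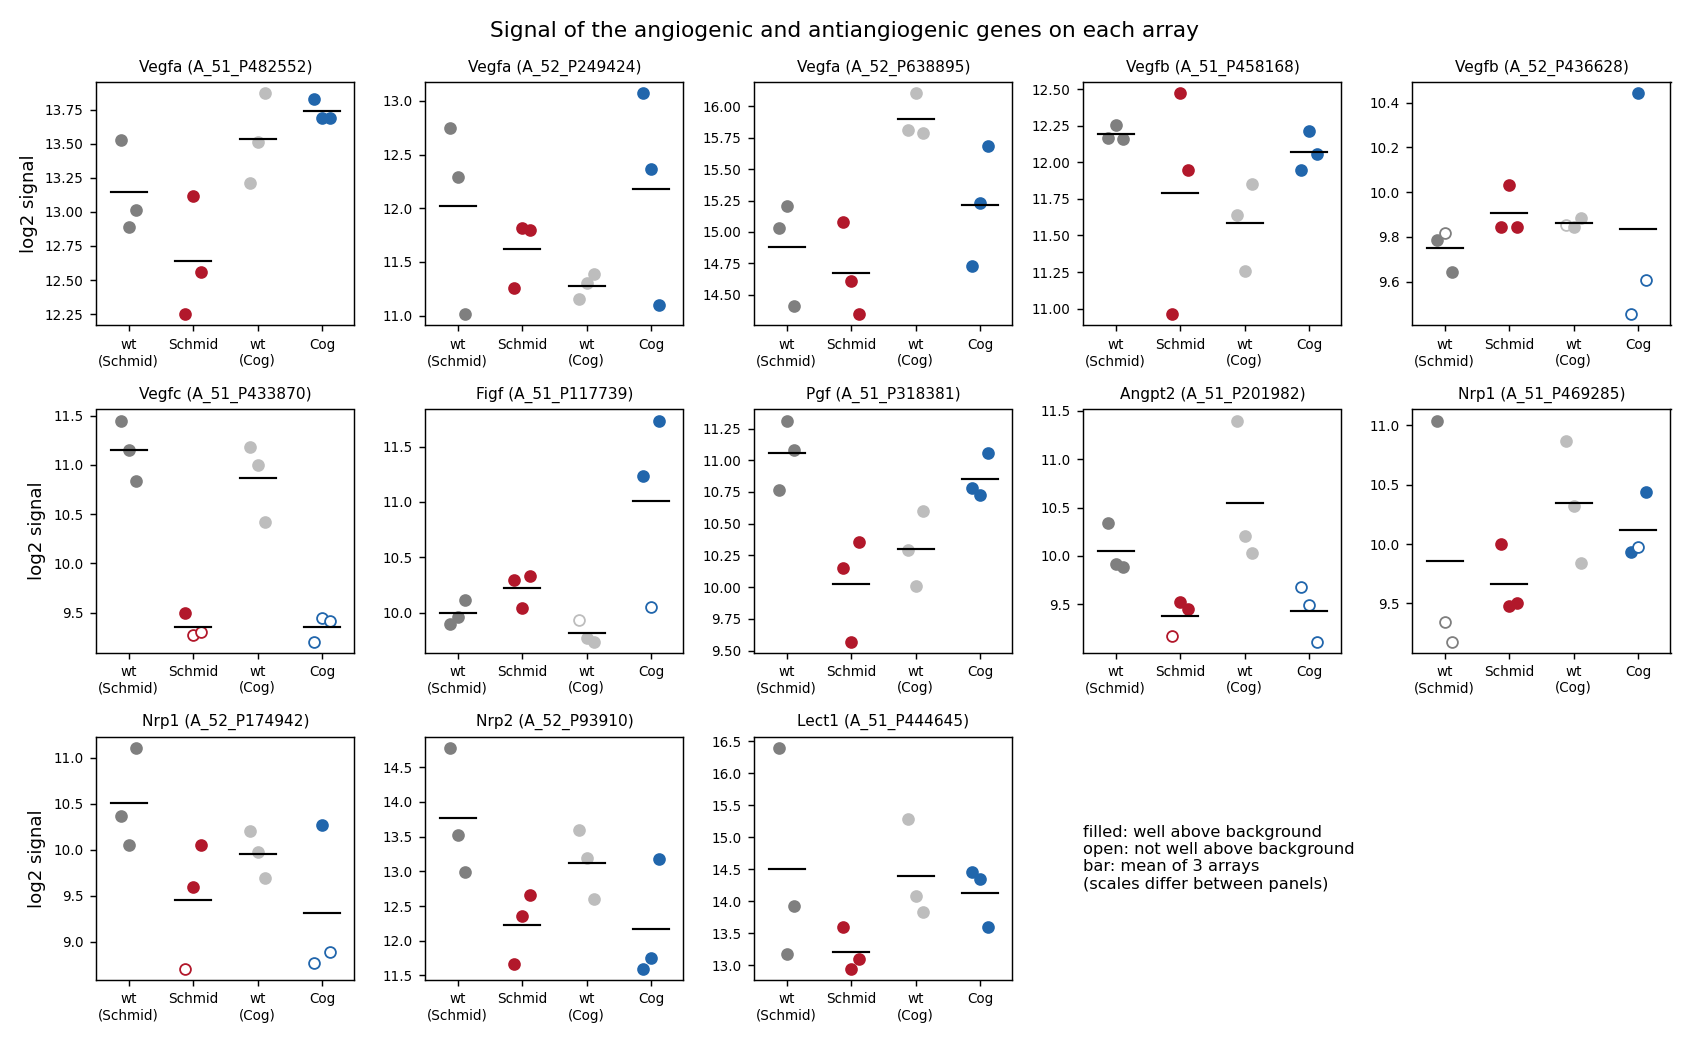
Log2 signal (vertical axis, a separate scale per panel) of the 13 member probes that were well above background on 1 array or more, in the 4 groups of 3 arrays; each point is 1 mouse, open points were not well above background, and bars are group means. Vegfc is low in all 6 mutant arrays and high in all 6 wildtype arrays, whereas Pgf is lower in the 3 Schmid arrays than in their own wildtypes and Figf is high in 2 of the 3 Cog arrays.

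Vegfc, a growth factor best known for the growth of lymphatic vessels, was lower in both mutants. Its probe A_51_P433870 (mm7, chr8:52955111-52955170, plus strand) gave log2 signals of 9.498, 9.27 and 9.31 in Schmid and of 11.45, 11.15 and 10.84 in the Schmid wildtypes. The Cog arrays gave 9.21, 9.45 and 9.41, and the Cog wildtypes 11.18, 10.998 and 10.42. All 6 mutant values lay below all 6 wildtype values, and the mutant values were at the edge of detection: 1 of the 3 Schmid arrays and 0 of the 3 Cog arrays were well above background. Vegfc was 3.46-fold lower in Schmid, with a log2 change of -1.79 (95% interval -2.25 to -1.33, limma adjusted p of 4.41e-04). In Cog it was at least 2.06-fold lower, taking the lowest signal well above background on each Cog array, or the probe's own where higher, as the bound. The fitted log2 change there was -1.51 (95% interval -1.97 to -1.05, adjusted p of 0.00600). With the mutants at the edge of detection, the sizes of the 2 changes were not set against each other.

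Most markers of endothelial cells had a lower fitted signal in both mutants, as Vegfc did. Of 8 endothelial markers measured, 5 fell in Schmid (Cdh5, Emcn, Cldn5, Egfl7 and Ramp2) and Vwf rose, and in Cog Cldn5 fell, where the calls of Vwf and of Cldn5 in Cog were each lost in 5 of 18 alternatives. Their median log2 change was -1.84 in Schmid and -0.89 in Cog. Beside this and the later list counts stand the shares of all probes called, 10.5% in Schmid (4.69% lower) and 2.31% in Cog (0.748% lower). The mean log2 signal of the list was 10.17 to 10.54 in Schmid against 11.70 to 11.91 in its wildtypes, and 11.04 to 11.36 in Cog against 12.01 to 12.12 in its wildtypes, with no overlap in either comparison. Pecam1 did not rise well above background on any of the 12 arrays. The part of these cells in the Vegfc result was not tested, and in a dissected tissue fewer cells of a type and less RNA per cell cannot be told apart.

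Pgf, which binds Flt1, was called lower in Schmid, and its change differed between the mutants. Probe A_51_P318381 (mm7, chr12:83167223-83169225, minus strand) gave 10.15, 9.57 and 10.36 in Schmid and 10.76, 11.31 and 11.08 in its wildtypes. It gave 10.78, 10.73 and 11.05 in Cog and 10.29, 10.01 and 10.60 in the Cog wildtypes. Neither pair of groups overlapped, with Schmid below and Cog above its own wildtypes, and all 12 arrays were well above background. The fall in Schmid was 2.04-fold, a log2 change of -1.03 (95% interval -1.54 to -0.52, adjusted p of 0.0108), just past the 2-fold limit. Leaving out Schmid replicate 2 (-0.80) or Schmid wildtype replicate 2 (-0.90) took it under that limit with the adjusted p still at 0.05 or less, as did the deposited matrix (-0.98) and removal of the trend over array rows (-0.96). With the test against a 2-fold minimum, the call was lost in 5 of 18 alternatives. In Cog the log2 change was 0.55 (1.47-fold, 95% interval 0.04 to 1.06) and did not pass, at an adjusted p of 0.200. The difference between the 2 changes was -1.58 (95% interval -2.30 to -0.86, adjusted p of 0.0102) and was called. The wildtype groups themselves were separated, with the Schmid wildtypes 0.75 higher on the log2 scale (adjusted p of 0.163).

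**Figure D2:**
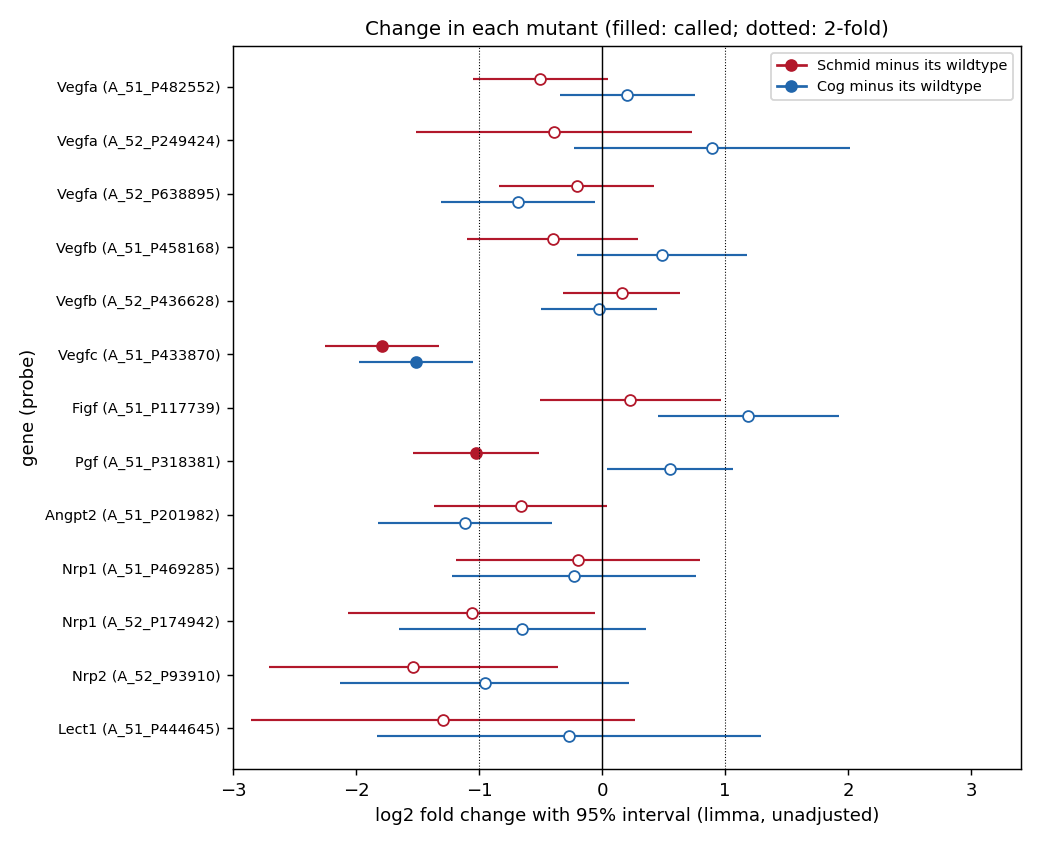
Log2 fold change (horizontal axis) of the 13 detected member probes in Schmid (red) and Cog (blue), each against its own wildtype, with unadjusted 95% intervals from limma; filled points were called and dotted lines mark 2-fold. Vegfc lies left of the 2-fold line with its whole interval in both mutants, and Pgf is the probe whose 2 intervals lie on opposite sides of 0.

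The sequences just before the starts of Vegfc and Pgf, the members that were called, are shown from RefSeq (GRCm38.p6), Vegfc in both mutants and Pgf in Schmid. Capitals mark a match to the hypoxia response core GCGTG on either strand, which reads CACGC on the other one.
Vegfc, chr8:54077282-54077531, plus strand: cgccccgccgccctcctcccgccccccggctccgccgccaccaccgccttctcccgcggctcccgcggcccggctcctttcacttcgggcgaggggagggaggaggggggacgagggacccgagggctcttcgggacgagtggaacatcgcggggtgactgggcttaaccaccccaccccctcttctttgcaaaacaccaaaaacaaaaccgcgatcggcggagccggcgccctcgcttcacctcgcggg
Pgf, chr12:85177314-85177563, minus strand: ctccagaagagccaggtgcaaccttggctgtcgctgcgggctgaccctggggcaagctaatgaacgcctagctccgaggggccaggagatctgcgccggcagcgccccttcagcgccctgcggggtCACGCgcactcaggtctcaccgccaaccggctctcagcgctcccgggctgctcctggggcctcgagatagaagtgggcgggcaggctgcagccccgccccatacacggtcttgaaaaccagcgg
Promoters were found for 8 of the 10 members, all but Angpt1 and Angpt2. Within 250 bases before the start and on either strand, GCGTG was found in 4 of the 8 (Vegfb, Pgf, Nrp1 and Nrp2) and in 28.2% of 32851 promoters. The other form of the core, ACGTG, was found in 0 of 8 and in 16.6% of all. The endoplasmic reticulum stress element, CCAAT, any 9 bases and CCACG, whose end can overlap ACGTG, was found in 0 of 8 and in 0.113% of all. These are letter matches in a short window and carry no measurement of binding.

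Vegfa, the main vessel signal of hypertrophic cartilage, was not called in either mutant by any of its 3 probes. Probe A_51_P482552 (mm7, chr17:44147967-44148026, minus strand) was printed in 10 spots spread over the array. Its log2 signals were 12.25, 13.12 and 12.56 in Schmid and 13.53, 12.89 and 13.02 in the Schmid wildtypes, and the groups overlapped. Cog gave 13.83, 13.69 and 13.69 and its wildtypes 13.21, 13.51 and 13.87, again with overlap. The log2 change was -0.50 in Schmid (95% interval -1.05 to 0.05, adjusted p of 0.159) and 0.21 in Cog (-0.34 to 0.75, adjusted p of 0.680).

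The repeated spots show the spread of the printing within an array, beside the spread between arrays of different mice. Within an array the SD of the spots was 0.02 to 0.19, whereas the SD between the 3 Schmid mice was 0.44 and that between their wildtypes 0.34. All 10 spots gave a negative Schmid difference, from -0.61 to -0.22, and all 10 gave a positive Cog difference, from 0.02 to 0.71. The spots of 1 array share their RNA, so these counts describe the printing of the probe and not replicate mice. On Schmid wildtype replicate 1, 6 of the 10 spots remained after outliers were left out, and on 3 other arrays 9 did.

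**Figure D3:**
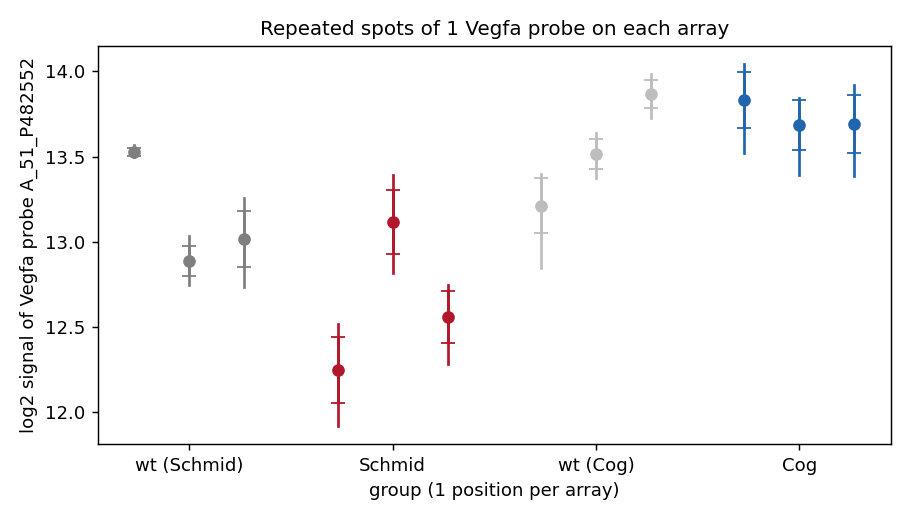
Log2 signal (vertical axis) of the repeated spots of Vegfa probe A_51_P482552 on each array, in 4 groups of 3 arrays; points are means over 6 to 10 spots, capped bars the SD and lines the range of the spots. The spots of 1 array lie close together (SD 0.02 to 0.19) next to the gaps between mice of 1 group.

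The other Vegfa probes gave other orders of the groups. A_52_P638895 (mm7, chr17:44146842-44146901, minus strand) read 15.08, 14.61 and 14.34 in Schmid and 15.03, 15.21 and 14.41 in its wildtypes, a log2 change of -0.21 (adjusted p of 0.620). In Cog it read 14.73, 15.23 and 15.69, all below the 15.81, 16.10 and 15.79 of the wildtypes, with a log2 change of -0.68 (95% interval -1.31 to -0.06, adjusted p of 0.198). The Cog wildtypes were also above all Schmid wildtypes, by 1.02 on the log2 scale in the fit (written as -1.02 for Schmid wildtypes minus Cog wildtypes, adjusted p of 0.129).

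The remaining Vegfa probe, A_52_P249424, was the most spread over the Cog mice of the 3 Vegfa probes. It read 11.26, 11.82 and 11.80 in Schmid and 12.75, 12.30 and 11.01 in the Schmid wildtypes, and 13.07, 12.36 and 11.10 in Cog and 11.15, 11.30 and 11.39 in the Cog wildtypes. Both pairs of groups overlapped, with log2 changes of -0.39 (95% interval -1.51 to 0.73) in Schmid and 0.90 (-0.23 to 2.02) in Cog. Whether the probes moved apart was tested on the difference between probes within each array. A_52_P638895 minus A_51_P482552 gave a mean of 1.48 in Cog and 2.37 in its wildtypes, a difference of -0.89 (exact permutation test, two-sided p of 0.2), where 3 mice against 3 cannot give less than 0.1 and so cannot pass 0.05. The corresponding Schmid difference was 0.30 (exact p of 0.6), and that of the Schmid wildtypes minus the Cog wildtypes was -0.63 (exact p of 0.2). A_52_P249424 minus A_51_P482552 differed by 0.11 in Schmid (exact p of 0.9), by 0.69 in Cog (exact p of 0.4) and by 1.13 between the wildtype groups, where the means were -1.13 and -2.25 and the groups did not overlap (exact p of 0.1, the smallest possible). After Benjamini-Hochberg adjustment over these 6 differences, the exact permutation p was 0.4 or higher for each. The fitted change in Cog was thus negative for 1 Vegfa probe and positive for the other 2. Whether the probes differ was not resolved, since this exact test with 3 mice against 3 could not pass 0.05.

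Vegfb, which binds Flt1, had 2 probes and was not called. A_51_P458168 gave 10.96, 12.47 and 11.95 in Schmid and a narrow 12.17, 12.26 and 12.16 in its wildtypes, with a log2 change of -0.40 (adjusted p of 0.362) that rested on Schmid replicate 1 (0.01 without it). The 3 Cog arrays, at 11.95, 12.21 and 12.06, lay above the 11.64, 11.26 and 11.85 of their wildtypes, with a log2 change of 0.49 (adjusted p of 0.404). The other probe, A_52_P436628, stayed between 9.45 and 10.44 over the 12 arrays, 8 of them well above background, with log2 changes of 0.16 in Schmid and -0.03 in Cog.

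Figf, the other ligand of Flt4, did not pass the test in either mutant. A_51_P117739 (mm7, chrX:159176825-159176884, plus strand) read 11.23, 10.05 and 11.73 in Cog and 9.94, 9.77 and 9.74 in the Cog wildtypes. The Cog arrays all lay above the wildtypes, but replicate 2 was near them and not well above background. The log2 change was 1.19 (2.28-fold, 95% interval 0.45 to 1.92, adjusted p of 0.0722). Without Cog replicate 2 it was 1.67 (adjusted p of 0.00555), with the slide as a random block 1.205 (adjusted p of 0.0177) and with array weights 1.04 (adjusted p of 0.0332), each of which would be called. The correlation estimated within slides was negative (-0.122), so the slide block narrowed the error rather than widening it, here and for Angpt2 and Nrp2 in what follows. Schmid, at 10.29, 10.04 and 10.33, overlapped its wildtypes at 9.90, 9.96 and 10.12 (log2 change 0.23, adjusted p of 0.639). The difference between the mutants was -0.96 (SE 0.47, adjusted p of 0.185).

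The angiopoietins were near background. Both Angpt1 probes were well above background on 0 of 12 arrays, so no change is given for this activator of Tek. Angpt2 (A_51_P201982, mm7, chr8:18668127-18668186, minus strand) read 9.17, 9.53 and 9.45 in Schmid and 10.34, 9.91 and 9.89 in the Schmid wildtypes, and 9.68, 9.49 and 9.12 in Cog and 11.40, 10.21 and 10.03 in the Cog wildtypes. Each mutant group lay below its wildtypes, and 0 of the 3 Cog arrays were well above background. The log2 change was -0.66 in Schmid (95% interval -1.37 to 0.04, adjusted p of 0.1501). In Cog the fitted log2 change was -1.12 (95% interval -1.82 to -0.41), with an adjusted p of 0.0780 that did not pass. With the bound used for Vegfc, the Cog mean lay at least 1.64-fold below the wildtype mean. That bound concerns the means alone and takes no account of the spread between mice. With the slide as a random block the Cog change was called (adjusted p of 0.0194), and with normexp intensities scaled to the 75th percentile in place of quantile normalization the Schmid change was (-1.10, adjusted p of 0.0214). That scaling also moved the median Schmid change of all probes from -0.06 to -0.35, which lowers Schmid values here and for Nrp2 and Nrp1 in what follows.

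Of the neuropilins, Nrp2, a co-receptor for Vegfc and for semaphorins, came nearest to the threshold. Probe A_52_P93910 (mm7, chr1:63059217-63059276, plus strand) read 11.67, 12.36 and 12.67 in Schmid, all below the 14.78, 13.52 and 12.998 of the wildtypes. The log2 change of -1.54 (2.90-fold lower, 95% interval -2.71 to -0.36) had an adjusted p of 0.0584 and was not called. It was called with 75th percentile scaling (adjusted p of 0.0497), the slide as a random block (0.0267), probes well above background on 3 or more arrays alone (0.0471) and without Schmid wildtype replicate 3 (0.0451). Cog read 11.60, 11.75 and 13.18 and overlapped its wildtypes at 13.59, 13.19 and 12.60 (log2 change -0.95, adjusted p of 0.336). The other Nrp2 probe, A_51_P473024, was well above background on 0 of 12 arrays. Since the 2 Nrp2 probes match different database entries, the reading holds for the sequence under A_52_P93910 only.

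Nrp1, the co-receptor of Vegfa, had 3 probes, of which A_52_P371237 was well above background on 0 of 12 arrays. A_51_P469285 read 10.00, 9.48 and 9.51 in Schmid against 11.04, 9.35 and 9.18 in its wildtypes, and 9.93, 9.98 and 10.44 in Cog against 10.87, 10.32 and 9.84. Both pairs overlapped, with log2 changes of -0.19 and -0.23. That probe was well above background on 1 of the 3 Schmid wildtypes and on 2 of the 3 Cog arrays. A_52_P174942 read 8.71, 9.59 and 10.06 in Schmid and 10.36, 10.05 and 11.11 in its wildtypes, with a log2 change of -1.06 (adjusted p of 0.111) that was called with 75th percentile scaling (-1.31, adjusted p of 0.0181). Its Cog values were 8.77, 10.27 and 8.89 and those of the Cog wildtypes 10.20, 9.97 and 9.69, an overlap, with a log2 change of -0.65. A_52_P174942 was well above background on 2 of the 3 Schmid and 1 of the 3 Cog arrays. It matches a different database entry from the other Nrp1 probes.

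Lect1, the antiangiogenic member, was not called in either mutant. Its probe A_51_P444645 maps to chr14:74326161-74331015 of mm7, minus strand, a span of 4855 bases for 60 bases of probe, so that it crosses at least 1 intron. It is shown because it is the single probe of the inhibitor.
Lect1 A_51_P444645: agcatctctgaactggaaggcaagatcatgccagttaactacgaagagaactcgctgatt
The Schmid arrays read 13.59, 12.94 and 13.09 and the Schmid wildtypes 16.40, 13.18 and 13.93. Wildtype replicate 1 stood far above the others, and Schmid replicate 1 lay within the wildtype range. The log2 change of -1.29 (95% interval -2.85 to 0.27, adjusted p of 0.199) shrank to -0.34 without that wildtype. Cog read 14.46, 14.34 and 13.59 and overlapped its wildtypes at 15.29, 14.08 and 13.83, with a log2 change of -0.27 (95% interval -1.83 to 1.29, adjusted p of 0.863). Both intervals hold 0 and also more than 2-fold lower levels.

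The genes whose profiles over the 12 arrays were nearest to Vegfa probe A_52_P638895, by the mean absolute difference of centred log2 signals among 12807 probes, were Anxa5 (0.176), Usp4 (0.213) and Metap2 (0.219). For Lect1 they were Pdgfrl (0.239), Dspg3 (0.244) and C1qtnf3 (0.261). Dspg3 is a small proteoglycan of cartilage matrix.

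Of 5 genes listed as VEGF and angiopoietin receptors, 2 fell in Schmid, where 4.69% of all probes were called lower. Flt1, at 9.84, 11.19 and 11.74 in Schmid and 13.97, 12.23 and 13.05 in its wildtypes, was 4.47-fold lower (log2 change -2.16, adjusted p of 0.0197). Kdr, at 10.65, 10.90 and 11.32 against 13.72, 12.71 and 13.12, was 4.67-fold lower (-2.22, adjusted p of 0.00497). The groups did not overlap for either receptor. The Flt1 call was lost in 4 of 18 alternatives, among them without Schmid replicate 1 or Schmid wildtype replicate 3. In Cog, 0 of the 5 receptors measured (Flt1, Kdr, Flt4, Tek and Tie1) were called, and Flt4, the receptor of Vegfc and Figf, was well above background on 0 of 12 arrays. In Schmid, Tek (log2 change -0.34, adjusted p of 0.448) and Tie1 (-0.51, adjusted p of 0.0459, under 2-fold) were not called. Both Flt1 and Kdr are endothelial genes. Among the 8 endothelial markers given with Vegfc, 5 fell in Schmid and Vwf rose, and a link to the receptors was not tested. Of 6 class 3 semaphorins, which bind neuropilins, plexins or both, Sema3e rose in Schmid, by at least 2.29-fold (10.58, 10.50 and 11.02 against wildtypes that were not well above background, adjusted p of 2.21e-04), and the other 5 were not called. None of the 6 was called in Cog, where the most changed was Sema3d (log2 change -0.71, adjusted p of 0.290).

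**Figure D4:**
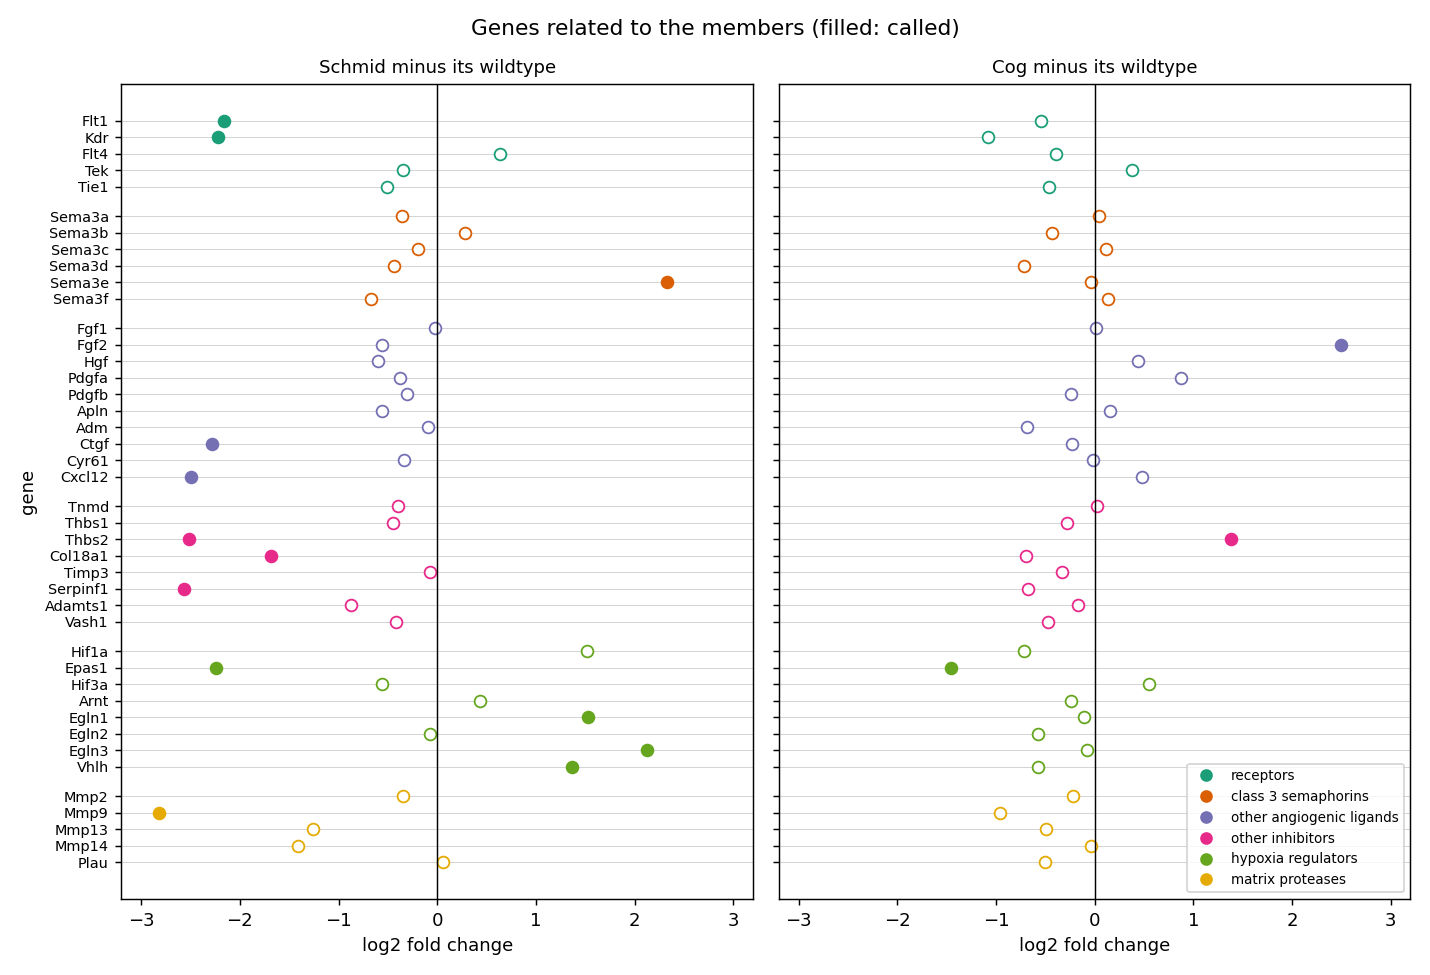
Log2 fold change (horizontal axis) in Schmid (left) and Cog (right) against the own wildtype for 42 genes related to the members, coloured by list, 1 probe per gene; filled points were called. Flt1, Kdr and Thbs2 lie far to the left in Schmid, where Egln3 and Sema3e lie to the right, whereas in Cog 3 genes are filled.

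Of 10 other angiogenic ligands, 2 fell in Schmid, where 4.69% of all probes were called lower. Ctgf, a matricellular growth factor of hypertrophic cartilage, fell 4.85-fold (log2 change -2.28, adjusted p of 9.18e-04), and Cxcl12, a chemokine, fell 5.65-fold (-2.50, adjusted p of 0.0258). The Cxcl12 call was lost in 4 of 18 alternatives, among them without Schmid replicate 1 or 3 or Schmid wildtype replicate 1. In Cog, Fgf2 rose 5.62-fold, from 10.74, 9.18 and 9.63 in the wildtypes to 13.02, 12.20 and 11.81, with no overlap (adjusted p of 0.0203). That call was lost in 6 of 18 alternatives, among them without Cog replicate 1 and without Cog wildtype replicates 2 or 3. Fgf2 was well above background on 2 of the 3 Cog wildtype arrays, so its fold rests in part on signal near background. The contrast between the mutants was called for Fgf2 (-3.05), Ctgf (-2.05) and Pdgfa (-1.25), each lower in Schmid relative to Cog, with the Pdgfa call lost in 9 of 23 alternatives.

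Of 8 inhibitors of vessel growth other than Lect1, 3 were called lower in Schmid, where 4.69% of all probes were. Thbs2, a thrombospondin, fell 5.70-fold (14.34, 13.60 and 13.56 against 15.87, 16.70 and 16.46, adjusted p of 6.49e-04). Serpinf1, or pigment epithelium-derived factor, fell 5.94-fold (adjusted p of 0.00497) and Col18a1, the collagen that holds endostatin, 3.21-fold (adjusted p of 0.00794). In Cog, Thbs2 rose 2.60-fold (adjusted p of 0.0373), a call lost in 12 of 18 alternatives, and the difference of the 2 mutants' changes for Thbs2 was -3.89 on the log2 scale (adjusted p of 8.30e-04). Timp3, a protease inhibitor that also blocks Kdr, differed between the wildtype groups, 3.67-fold lower in the Schmid wildtypes (adjusted p of 0.0233), a call lost in 8 of 18 alternatives.

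Among 8 regulators of the hypoxia response, which acts on Vegfa, Epas1 (the alpha subunit of HIF-2) fell in both mutants. Its Schmid values of 9.33, 10.25 and 10.21 lay below 12.70, 12.17 and 11.65 (4.72-fold, adjusted p of 0.00152), and its Cog values of 11.23, 11.51 and 12.19 below 12.92, 13.08 and 13.30 (2.75-fold, adjusted p of 0.0376), although the Cog call was lost in 11 of 18 alternatives. All Schmid wildtypes also lay below all Cog wildtypes for Epas1, with a log2 difference of -0.93 (adjusted p of 0.243). The prolyl hydroxylases Egln1 (2.89-fold, adjusted p of 0.0164) and Egln3 (4.35-fold, adjusted p of 4.50e-05) rose in Schmid, as did Vhlh (2.57-fold, adjusted p of 0.0190), the von Hippel-Lindau gene that marks HIF proteins for degradation. The calls of Egln1 and Vhlh were each lost in 5 of 18 alternatives, among them without Schmid replicate 1 or Schmid wildtype replicate 2 or 3. Egln3, itself a gene induced by hypoxia in many cells, read 11.47, 11.45 and 11.16 in Schmid and 9.48, 9.22 and 9.01 in the wildtypes. Egln1 and Egln3 were well above background on all 3 Schmid arrays and on 1 of the 3 Schmid wildtypes each, so their folds rest on wildtype signals near background. Egln3 was also called between the mutants, but it was well above background on 0 of the 6 Cog and Cog wildtype arrays, and no size is given. Vhlh (1.93) differed between the mutants as well, and Hif3a the other way (-1.11), calls that were lost in 7 and 12 of 23 alternatives. Vhlh read 12.01, 11.53 and 11.53 in Schmid and 11.31, 9.77 and 9.92 in the Schmid wildtypes, 2 of these 3 being well above background. It read 11.76, 11.42 and 11.305 in the Cog wildtypes, and the Schmid wildtypes minus the Cog wildtypes gave -1.17 (adjusted p of 0.152). Both Vhlh calls thus rest in part on low Schmid wildtype values. Of 5 matrix proteases, Mmp9, which opens the matrix to vessels, fell in Schmid (7.03-fold, adjusted p of 0.00363) and 0 were called in Cog.

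**Figure D5:**
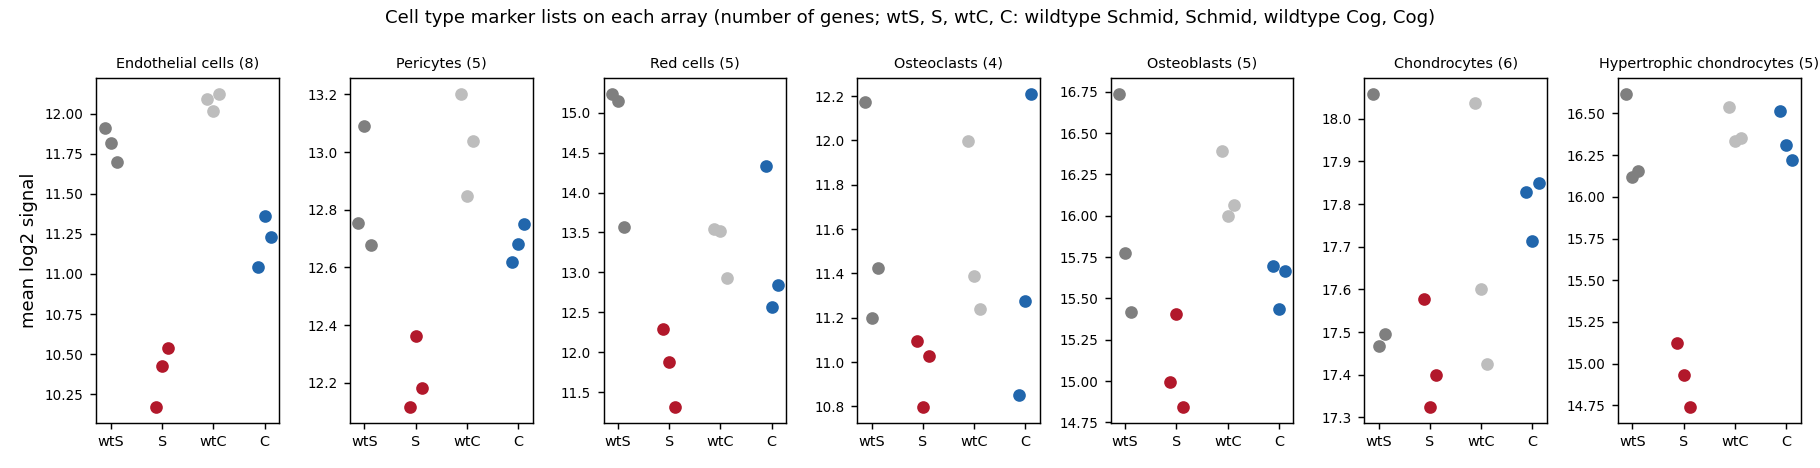
Mean log2 signal (vertical axis, a separate scale per panel) of each marker list on each array, in the order Schmid wildtypes (wtS), Schmid (S), Cog wildtypes (wtC) and Cog (C), with 1 point per mouse and the number of genes in brackets. The endothelial list means are lower in both mutants than in their wildtypes, and the hypertrophic list means are lower in Schmid and overlap in Cog.

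Some markers of other cells that the dissection can hold also fell in Schmid, where 4.69% of all probes were called lower. Red cell genes fell in Schmid for 3 of 5 (Hba-a1, Hbb-b1 and Alas2), with list means of 11.3 to 12.3 against 13.6 to 15.2 in the wildtypes, and 0 of 5 were called in Cog. Of 5 pericyte markers Acta2 fell in Schmid and 0 were called in Cog. Hypertrophic markers fell in Schmid for 3 of 5 (Ihh, Pthr1 and Akp2), whereas Col10a1 and Panx3 were not called. The means of this list were 14.7 to 15.1 in Schmid against 16.1 to 16.6. In Cog, Ihh fell and the list means, 16.2 to 16.5 against 16.3 to 16.5, overlapped. Osteoblast genes were called for 1 of 5 in each mutant, Col1a1 in Schmid and Dmp1 in Cog, both lower, and 0 of 4 osteoclast and 0 of 6 chondrocyte markers were called in either. Of the osteoclast markers, Calcr, the calcitonin receptor, differed between the mutants (-1.09, adjusted p of 0.0103), a call lost in 2 of 23 alternatives. The most changed chondrocyte marker against its own wildtype was Matn3, a cartilage matrix protein, with a log2 change of -0.84 in Schmid (adjusted p of 0.233). Among these single-gene calls, those of Acta2, Akp2 and Col1a1 in Schmid were lost in 6, 5 and 9 of 18 alternatives, and those of Ihh and Dmp1 in Cog in 8 and 11. The part of any of these cells in the changes of Vegfc, Pgf, Flt1 or Kdr was not tested.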

How the data were processed

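Hypertrophic zone RNA of 12 mice was amplified in 2 rounds, labelled with Cy3 and hybridized to 1-colour 44K whole mouse genome arrays by the authors. The authors deposited the scanner output (Agilent Feature Extraction 9.5.3 in the submitters' processing notes) with the mean intensity of each spot and the intensity of its local background, not normalized between arrays. They also deposited a series matrix of log2 values after normexp (offset 50) and quantile normalization; its lowest correlation with the values made here was 0.999871, and it served as an alternative. Probe positions are on mm7, per the file headers.

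Outlier spots and controls were left out, normexp (offset 50) and quantile normalization were applied, and spots were averaged per probe. Group means were fitted with limma 3.58.1 in R 4.3.3 over all 12 arrays (8 residual degrees of freedom), with Benjamini-Hochberg adjustment over 41174 probes. Adjusted p values in the text are limma's. The number of mice limits the precision. Members and gene lists were chosen with earlier results of these data known. All member probes are named; of the related lists and marker lists, at the brightest probe of each gene, the called genes are named, or the most changed where none was called in any comparison. Alternatives were scaling, background, position trend, blocks, weights, filters, thresholds and leaving out each mouse. The sequence of 1 Vegfa probe is not reported here.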

Additional observations from a re-analysis of the deposited data

Results flagged for a closer look

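Pgf was picked out because its effect differed between the mutants by a test of that difference: the Schmid change minus the Cog change was -1.58 on the log2 scale (A_51_P318381, limma adjusted p of 0.0102), with all 3 Schmid mice below and all 3 Cog mice above their own wildtypes. It was called in 22 of 23 alternatives, the exception being the test against a 2-fold minimum, and ranged from -2.49 to -1.35. The 2 mutants lay on different slides from their wildtypes, so slide and genotype cannot be told apart here.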

How the results depend on the processing

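Vegfc stayed called lower in both mutants in every alternative but the test against a 2-fold minimum (adjusted p of 0.147 in Schmid and 1 in Cog). The counts of member probes called moved as follows. Lower in Schmid there were 1 with the deposited matrix, 5 with normexp scaled to the 75th percentile, 1 with the trend over array rows removed, 3 with the slide as a random block, 3 among probes well above background on 3 or more arrays, 4 with the adjusted p alone (of which 2 are Angpt1 probes at background), 0 against the 2-fold minimum and 1 to 3 when single mice were left out. In Cog there were 1 higher and 2 lower with the slide as a random block, 1 higher with array weights, 0 lower against the 2-fold minimum, and 0 to 1 higher when single mice were left out. For the difference between mutants there were 3 lower with the scanner's processed signal at the 75th percentile, 2 with that signal quantile normalized, 2 with normexp scaled to the 75th percentile, 2 with the adjusted p alone, 0 against the 2-fold minimum and 1 to 2 when single mice were left out. Among the 13 probes well above background on 1 array or more, Figf alone gained a call in this contrast, in 1 of 23 alternatives. The other added calls were of probes at background, such as Angpt1 A_52_P574140 with the adjusted p alone (0.00409). Between wildtypes 1 was lower with array weights.

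Directions turned for changes that were not called. With array weights the log2 changes were 0.056 for Vegfa (A_52_P249424) and 0.0533 for Nrp1 (A_51_P469285) in Schmid, 0.0534 for Vegfb (A_52_P436628) and 0.14 for Lect1 in Cog, 0.11 for Nrp2 between mutants and -0.071 for Lect1 between wildtypes. With normexp scaled to the 75th percentile they were -0.21 for Vegfb and -0.061 for Figf in Schmid, 0.022 for Vegfb in Cog, and -0.23 for Vegfb, -0.11 for Angpt2 and -0.56 for Nrp1 between mutants. Nrp1 in Schmid was 0.32 with the processed signal at the 75th percentile and 0.36 with it quantile normalized. Vegfc between mutants, both near background, was 0.20 with the latter and 0.032 with the row trend removed, where Vegfb in Cog was 0.064 and Nrp1 between mutants -0.17. Flt4, not above background, went from 1.03 between mutants to -1.92 and -1.42 with the processed signals. Leaving out single mice gave, in Cog, -0.55 to 0.18 for Lect1, -0.48 to 0.033 for Nrp1 (A_51_P469285) and -0.33 to 0.16 for Vegfb (A_52_P436628); in Schmid, -0.53 to 0.40 for Nrp1 and -0.74 to 0.013 for Vegfb (A_51_P458168); between mutants, -0.30 to 0.63 for Nrp1 (A_51_P469285), -0.71 to 0.072 for Nrp1 (A_52_P174942) and -0.0061 to 0.49 for Vegfb (A_52_P436628); and between wildtypes -0.85 to 0.76 for Lect1. The cause was not tested.

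The 75th percentile scaling moved the median of all probes by more than 0.1 on the log2 scale: it was -0.40 in Schmid and 0.43 in Cog with the processed signal and -0.35 in Schmid with normexp, against -0.06 and -0.004. Labels number the mice of each group alike, but same-numbered arrays did not all deviate together (correlations of 0.193, 0.171 and 0.066 for Schmid, -0.116, 0.0716 and -0.106 for Cog). Between the wildtype groups they were 0.406, 0.0465 and 0.190. Differently numbered pairs gave -0.170 to 0.0764 for Schmid, -0.0722 to 0.182 for Cog and -0.434 to 0.351 between the wildtype groups. With the replicate block the member counts were 0 higher and 2 lower in Schmid, 0 higher and 1 lower in Cog, 0 higher and 1 lower between mutants, and 0 and 0 between wildtypes, as without it. Of 50 calls of list genes, 24 were lost in at most 1 alternative and 7 in 10 or more (Thbs2, Epas1 and Dmp1 in Cog, and Alas2, Egfl7, Hbb-b1 and Hif3a between mutants). Vegfc and Angpt2 in Cog have bounds, not levels, and Vegfc in Schmid was well above background on 1 of 3 arrays.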
